A study of Mus musculus with 2 samples.

Results

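The transcripts of 8 genes that mark or arm type-2 innate lymphoid cells (ILC2s), *Il1rl1*, *Gata3*, *Calca*, *Rora*, *Il5*, *Il13*, *Il4* and *Klrg1*, were followed by their symbols, as 8 of 55386 features, in single CD45+ cells of the mouse aortic adventitia. They were selected on earlier results of these 2 libraries, in which transcripts of such cells had been counted, so their levels across cell classes are given as a description without a test. The cells came from *Rank*Cre *Rosa26*eYFP mice of 16 weeks, either untreated (steady state, 1 library pooled from 3 animals) or after 10 days of angiotensin II (AngII, 1.8 µg/kg/min by osmotic pump, 1 library pooled from 2 animals). AngII is a vasoconstrictor peptide hormone whose infusion brings on hypertension and inflammation of the arterial wall. In these mice Cre is expressed from the locus of *Rank* (*Tnfrsf11a*) and removes a stop cassette in front of eYFP, so that a cell that has once expressed *Rank*, and every cell descended from it, can transcribe the reporter. A reporter transcript therefore does not show when the Cre was active, or whether *Rank* is still on. With 1 library per condition there was no replicate and the pooled animals could not be told apart, so no p-value was computed, and every interval printed here (at 95%) covers counting error only.

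ILC2s are tissue-resident lymphocytes without rearranged antigen receptors. They sit in adventitial cuffs of vessels and respond within hours to alarmins released by stromal and epithelial cells. *Il1rl1* encodes ST2, the receptor for the alarmin IL-33, *Gata3* and *Rora* encode transcription factors that ILC2s require, and *Il5*, *Il13* and *Il4* encode the type-2 cytokines. *Calca* encodes the precursor of calcitonin and of the neuropeptide CGRP, and *Klrg1* encodes an inhibitory receptor found on mature ILC2s and on NK and effector T cells. Mast cells and basophils also carry ST2 and make IL-4 and IL-13, and regulatory T cells can carry ST2 as well, so that no single member of the set marks an ILC2 by itself. Counts were taken per gene near the 3′ end, and could not separate the soluble from the membrane-bound form of ST2 or calcitonin from CGRP.

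The members lie on 6 chromosomes of GRCm38, and the cytokine genes share 1 of them. *Il4* (chr11:53602982-53618669, minus strand), *Il13* (chr11:53631324-53634702, minus strand) and *Il5* (chr11:53720794-53725106, plus strand) form the type-2 cytokine cluster. *Il1rl1* lies at chr1:40429570-40465415 and *Rora* at chr9:68653786-69388246, both on the plus strand, while *Gata3* (chr2:9857078-9890034), *Calca* (chr7:114631478-114636357) and *Klrg1* (chr6:122270596-122282882) are on the minus strand. RefSeq promoter windows of the 250 bases before the start (GRCm38.p6) were found for 7 of the 8 genes. As GATA3 is a member of the set, the windows were searched on both strands for 4 spellings of the GATA motif, namely AGATAA with its variant AGATAG, as well as TGATAA with its variant TGATAG. The windows of *Il1rl1*, *Il5* and *Il13* are printed 5′ to 3′, since the results below turn on these genes, with matches in capitals.

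Il1rl1, outer start, chr1:40429320-40429569, plus strand: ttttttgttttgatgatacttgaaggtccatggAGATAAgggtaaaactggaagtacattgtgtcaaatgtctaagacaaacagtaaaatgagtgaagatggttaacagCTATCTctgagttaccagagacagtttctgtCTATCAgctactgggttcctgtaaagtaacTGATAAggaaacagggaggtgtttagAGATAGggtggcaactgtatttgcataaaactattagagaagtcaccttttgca
Il1rl1, inner start, chr1:40439379-40439628, plus strand: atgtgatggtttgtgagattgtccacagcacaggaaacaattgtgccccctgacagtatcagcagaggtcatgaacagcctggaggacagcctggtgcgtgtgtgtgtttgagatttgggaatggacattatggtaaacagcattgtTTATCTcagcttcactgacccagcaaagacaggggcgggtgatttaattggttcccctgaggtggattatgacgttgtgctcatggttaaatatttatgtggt
Il5, chr11:53720544-53720793, plus strand: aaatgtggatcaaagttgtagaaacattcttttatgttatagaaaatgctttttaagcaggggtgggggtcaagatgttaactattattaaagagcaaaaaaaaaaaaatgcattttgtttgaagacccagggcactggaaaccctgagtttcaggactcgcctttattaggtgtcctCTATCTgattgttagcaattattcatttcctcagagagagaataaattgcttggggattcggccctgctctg
Il13, chr11:53634703-53634952, minus strand: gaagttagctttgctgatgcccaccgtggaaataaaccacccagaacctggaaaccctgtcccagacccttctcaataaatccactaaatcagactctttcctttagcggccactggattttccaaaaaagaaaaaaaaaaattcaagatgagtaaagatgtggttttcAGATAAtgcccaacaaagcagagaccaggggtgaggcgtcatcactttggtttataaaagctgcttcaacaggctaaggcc

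The outer window of *Il1rl1* held 5 matches, which began 217, 141, 110, 80 and 54 bases before the start. Of all 32851 RefSeq windows of this length, 14 (0.0426%) held 5 or more matches. The inner window of *Il1rl1* held 1 match, as did those of *Il5* (72 bases before the start) and *Il13* (81 bases before the start). At least 1 match was in 26.5% of all windows, so a single match sets none of them apart. *Calca* and *Rora* held 1 match each, *Il4* held 1 in the first of its windows and none in the other, and the *Gata3* window held none. A match describes these letters and is not evidence of binding.

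The steady-state library held 346 barcodes, of which 306 were kept (median 9105 UMIs), and the AngII library held 4419, of which 4198 were kept (median 1092 UMIs). The libraries shared 0 barcodes. As 1910 of the kept AngII cells and 3 of the kept steady-state cells held fewer than 1000 UMIs, a transcript was found less often in an AngII cell than in a steady-state cell at the same level, and shares of cells are therefore also given after each cell was thinned to 1000 UMIs. Cells were assigned to classes by marker genes that included neither the members nor the reporter. The ILC2 gate used 15 such genes, among them *Areg*, *Icos*, *Il2ra*, *Il7r*, *Il17rb* and *Cxcr6*.

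The gate took 9 cells at steady state (2.94% of cells, 1.35 to 5.51%) and 40 on AngII (0.953%, 0.682 to 1.30%). At AngII this was a mixed group that stays unnamed as a cell type. Its leading genes included the macrophage and dendritic cell genes *Il4i1*, *Clec4n* and *Il1rn*, 21 of its 40 cells held a UMI of the T cell genes *Cd3d*, *Cd3e* or *Trac*, 5 held *Foxp3* (the regulatory T cell factor) and 3 held *Trdc* (a γδ T cell receptor chain). A further 9 cells had none of these T cell UMIs and a weak gate score, and held a median of 18222 UMIs. The macrophage marker list was at 3123, 6706 and 15860 CPM in 3 of them (CPM, UMIs of a gene or list per 1000000 UMIs of the cells) and between 0 and 682 CPM in the other 6. Cells of the gate with 0 UMIs of *Cd3d*, *Cd3e* and *Trac* and a gate score of at least 0.5, a choice made after the data had been seen, are called ILC2-like from here on, and the full gate is called the ILC2 gate.

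ILC2-like cells numbered 7 at steady state (2.29%, 0.925 to 4.66%, median 9180 UMIs) and 10 on AngII (0.238%, 0.114 to 0.438%, median 7409.5 UMIs). The gate list summed to 4923 CPM in them at steady state and 5803 CPM on AngII. Of the 9 T cell markers they held 3 (*Cd3g*, *Trbc1* and *Trbc2*), at 1329 and 1559 CPM in sum. A *Trbc1* or *Trbc2* UMI was present in 7 of 7 and 9 of 10 of the cells. The 6 T cell receptor and CD3 genes summed to at most 1 UMI in 1 of 9 and 11 of 40 ILC2 gate cells. The steady-state cell was ILC2-like. The 11 AngII cells included the 9 weakly scored cells, and only 1 of the 11 was ILC2-like, a cell of 1356 UMIs with the macrophage list at 5162 CPM. Every other ILC2-like cell held more than 1 such UMI. NK and B cell markers were at 0 UMIs in both libraries, and mast cell markers at 0 and 3 UMIs. The macrophage list stood at 82.0 and 511 CPM, against 36873 and 35289 CPM in macrophage-like cells. Clustering without the members and the reporter returned the 7 steady-state cells as a cluster of their own (7 of 7 cells). On AngII all 10 fell in a cluster of 132 cells that carried the T cell name, together with 20 other cells of the ILC2 gate.

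**Figure D1:**
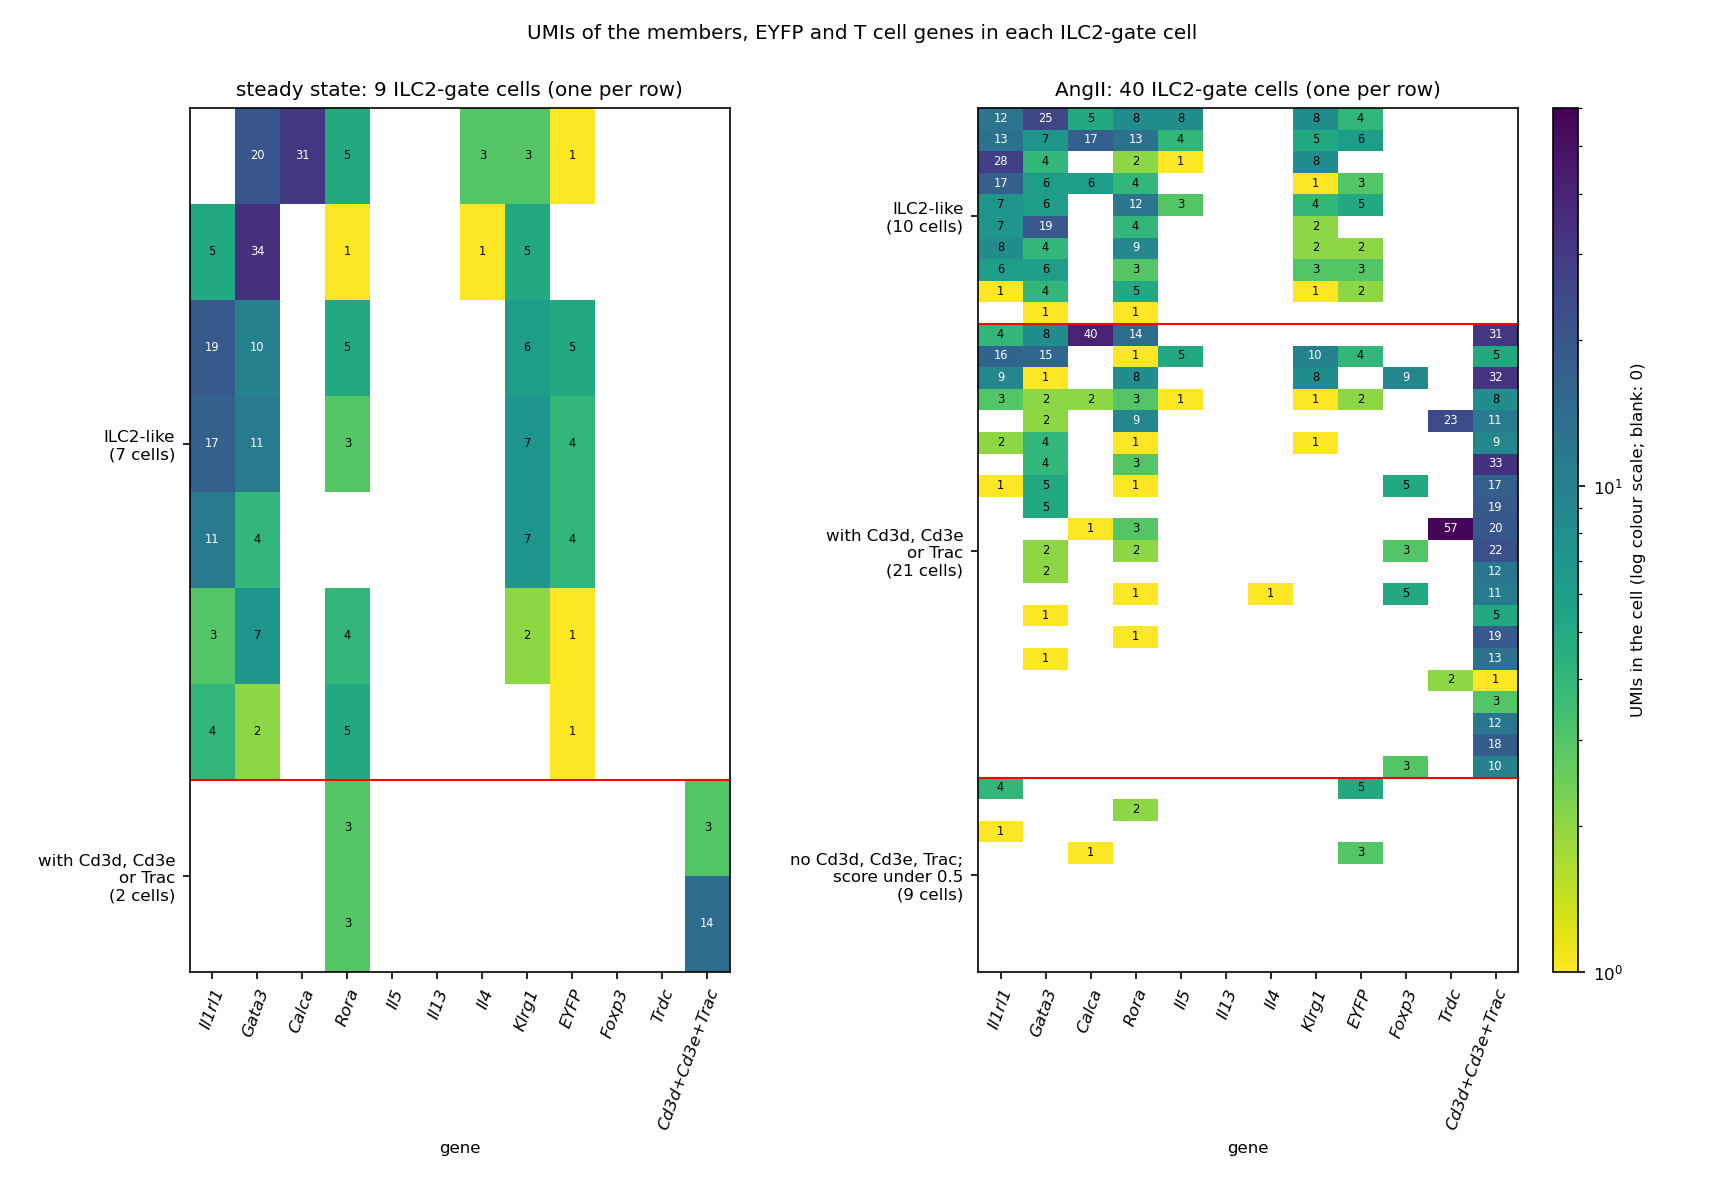
UMIs of each member, EYFP, *Foxp3*, *Trdc* and the sum of *Cd3d*, *Cd3e* and *Trac* in each cell of the ILC2 gate, 1 cell per row, at steady state (left, 9 cells) and on AngII (right, 40 cells). Colour is on a log scale and blanks are 0. The members fill the rows of the 7 and 10 ILC2-like cells at the top and some rows of the 21 AngII cells with T cell UMIs, and are nearly absent from the 9 AngII cells with a score under 0.5.

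Summed over the 8 members, ILC2-like cells held 235 UMIs at steady state (3856 CPM, 3379 to 4382) and 320 on AngII (4192 CPM, 3745 to 4677). Within the AngII gate the 21 cells with *Cd3d*, *Cd3e* or *Trac* held 1319 CPM (1144 to 1513), and the 9 weakly scored cells held 47.2 CPM (20.4 to 92.9). Within the AngII gate the members were thus densest in ILC2-like cells. The gate used none of the members, but they were selected on these libraries, and ILC2-like cells were chosen after the data had been seen. Outside the gate, the 1 steady-state cell assigned to the basophils held 40 member UMIs among its 9977 UMIs. Among AngII gate cells with T cell UMIs the members were uneven, since 6 of the 21 cells held 3 or more members and 5 held none.

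*Il1rl1*, the alarmin receptor, was the most widely spread member. Among classes of more than 1 cell, it was at 2108 CPM at steady state in mast-like cells (1506 to 2870), 968 CPM in ILC2-like cells (737 to 1249), 80.4 CPM in dendritic-like cells (59.1 to 107) and 45.3 CPM in macrophage-like cells (35.4 to 57.2). In this order no interval overlapped that of its neighbour. Unassigned cells stood at 133 CPM (96.6 to 178), which overlaps with dendritic-like cells. Monocyte-like cells followed at 14.9 CPM, from 5 UMIs of a single cell. T-like cells held 0 UMIs, which allows up to 8.34 CPM. On AngII the order was similar at the top, with 2905 CPM in mast-like cells (2189 to 3782) and 1297 CPM in ILC2-like cells (1054 to 1579). Dendritic-like (18.7 CPM) and macrophage-like cells (15.2 CPM) had overlapping intervals far below. Above these 2 classes stood eosinophil-like cells at 121 CPM (14.6 to 435, from 2 UMIs) and plasma-like cells at 35.0 CPM (12.8 to 76.2, from 6 UMIs). Both of these intervals overlapped that of dendritic-like cells. The 4 UMIs of AngII T-like cells (3.54 CPM) came from 1 cell of 258, and 2 of 4 eosinophil-like cells held 1 UMI each.

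Single ILC2-like cells held between 0 and 19 *Il1rl1* UMIs at steady state and between 0 and 28 on AngII, with the transcript in 6 of 7 and 9 of 10 cells. Since macrophage-like cells were numerous, they still held 23.7% of all *Il1rl1* UMIs at steady state and 21.4% on AngII, against 19.7 and 20.3% in ILC2-like cells. Mast-like cells held 13.3 and 11.3%, and at steady state dendritic-like cells held 15.7% and unassigned cells 14.7%. The *Il1rl1* count of a whole library was thus shared by several classes, with ILC2-like cells holding about as much as macrophage-like cells.

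*Gata3* was found mostly in lymphocytes. It was at 1444 CPM in ILC2-like cells at steady state (1158 to 1779) and at 1074 CPM on AngII (854 to 1333), and each of the 7 and 10 cells held at least 1 UMI. T-like cells held 88.9 CPM (60.8 to 125) at steady state and 70.8 CPM (56.2 to 88.2) on AngII, and NK-like cells overlapped with them at 127 and 64.4 CPM. Macrophage-like cells held 0 UMIs among 128 cells and 2 UMIs among 1397 cells, whereas AngII monocyte-like cells held 23 UMIs (9.16 CPM, 5.80 to 13.7) in 5 of 376 cells. Outside the ILC2 gate T-like cells, in which GATA3 also serves T cell development and the type-2 helper programme, held 32 of 44 *Gata3* UMIs at steady state and 80 of 132 on AngII. A single AngII cell assigned to the monocytes held 10 *Gata3* UMIs beside 12 UMIs of *Cd3d*, *Cd3e* and *Trac* and 168 UMIs of the macrophage list.

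*Rora*, which encodes the nuclear receptor RORα, was at 377 CPM in ILC2-like cells at steady state (239 to 566, 6 of 7 cells) and at 799 CPM on AngII (611 to 1026, 10 of 10 cells). The other 2 gate cells at steady state, which had T cell UMIs, held 3 UMIs each (443 CPM, 163 to 964). In T-like cells it was at 38.9 and 38.1 CPM, and in macrophage-like cells at 14.0 and 11.1 CPM. Macrophage-like cells thus held a low level of *Rora* where *Gata3* was nearly at 0, spread over 17 of 128 macrophage-like cells at steady state and 64 of 1397 on AngII. At steady state the intervals of ILC2-like and T-like cells did not overlap, nor did those of T-like and macrophage-like cells.

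The 3 cytokine genes were split between cell classes. *Il5*, the eosinophil growth and survival factor, was found on AngII as 23 UMIs in 7 cells, of which 4 were ILC2-like (16 UMIs, 210 CPM, 120 to 340). A further 2 were cells of the gate with T cell UMIs, and 1 was an unassigned cell of 533 UMIs. At steady state there was 1 *Il5* UMI in the whole library, in an unassigned cell of 1269 UMIs that also held single UMIs of *Il1rl1*, *Gata3*, *Rora* and EYFP. The 60940 UMIs of the 7 steady-state ILC2-like cells held none, which allows up to 49.2 CPM. No *Il5* UMI was found in T-like, NK-like, B-like, macrophage-like, dendritic-like or mast-like cells of either library.

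*Il13* and *Il4*, the cytokines of the shared IL-4 receptor α chain, came mainly from other cells. *Il13* was found as 3 UMIs at steady state and 2 on AngII, none of them in the ILC2 gate, in 3 mast-like cells and 1 cell assigned to the basophils. All 4 of these cells also held *Il1rl1*, and both AngII cells held *Il4*. The basophil-like assignment rests on 1 cell, which held 34 *Il1rl1*, 2 *Il13* and 4 *Il4* UMIs but also 197 UMIs of the macrophage list. *Il4* was at 105 CPM (2 UMIs) and 158 CPM (3 UMIs) in mast-like cells, and at 65.6 CPM in ILC2-like cells at steady state (17.9 to 168), where it came as 3 UMIs and 1 UMI of 2 cells. The AngII ILC2-like cells held none, which allows up to 39.3 CPM. No cell of either library held both *Il5* and *Il13*.

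*Calca* was found almost only in the ILC2 gate, but in few cells. All 31 steady-state UMIs came from 1 ILC2-like cell, which held 20 *Gata3*, 5 *Rora*, 3 *Il4* and 3 *Klrg1* UMIs and no *Il1rl1*. Its level of 509 CPM in ILC2-like cells thus rests on that cell. On AngII 72 of 73 UMIs lay in 7 cells of the gate, 28 of them in 3 ILC2-like cells (367 CPM, 244 to 530). The largest part, 40 UMIs, came from 1 cell that also held 31 UMIs of *Cd3d*, *Cd3e* and *Trac*, with 14 of *Rora*, 8 of *Gata3* and 4 of *Il1rl1*. In the T-like, NK-like, B-like, macrophage-like, monocyte-like, dendritic-like and mast-like cells of both libraries *Calca* was at 0 UMIs, which for the AngII macrophage-like cells allows up to 0.437 CPM.

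*Klrg1*, the inhibitory receptor for cadherins, was at 492 CPM in ILC2-like cells at steady state (332 to 703, 6 of 7 cells) and at 445 CPM on AngII (308 to 622, 9 of 10 cells). The gate held 90.9 and 75.0% of all its UMIs. The other source was NK-like cells on AngII, at 150 CPM (82.2 to 252) in 6 of 19 cells. T-like cells held 2 UMIs in each library (5.56 and 1.77 CPM).

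**Figure D2:**
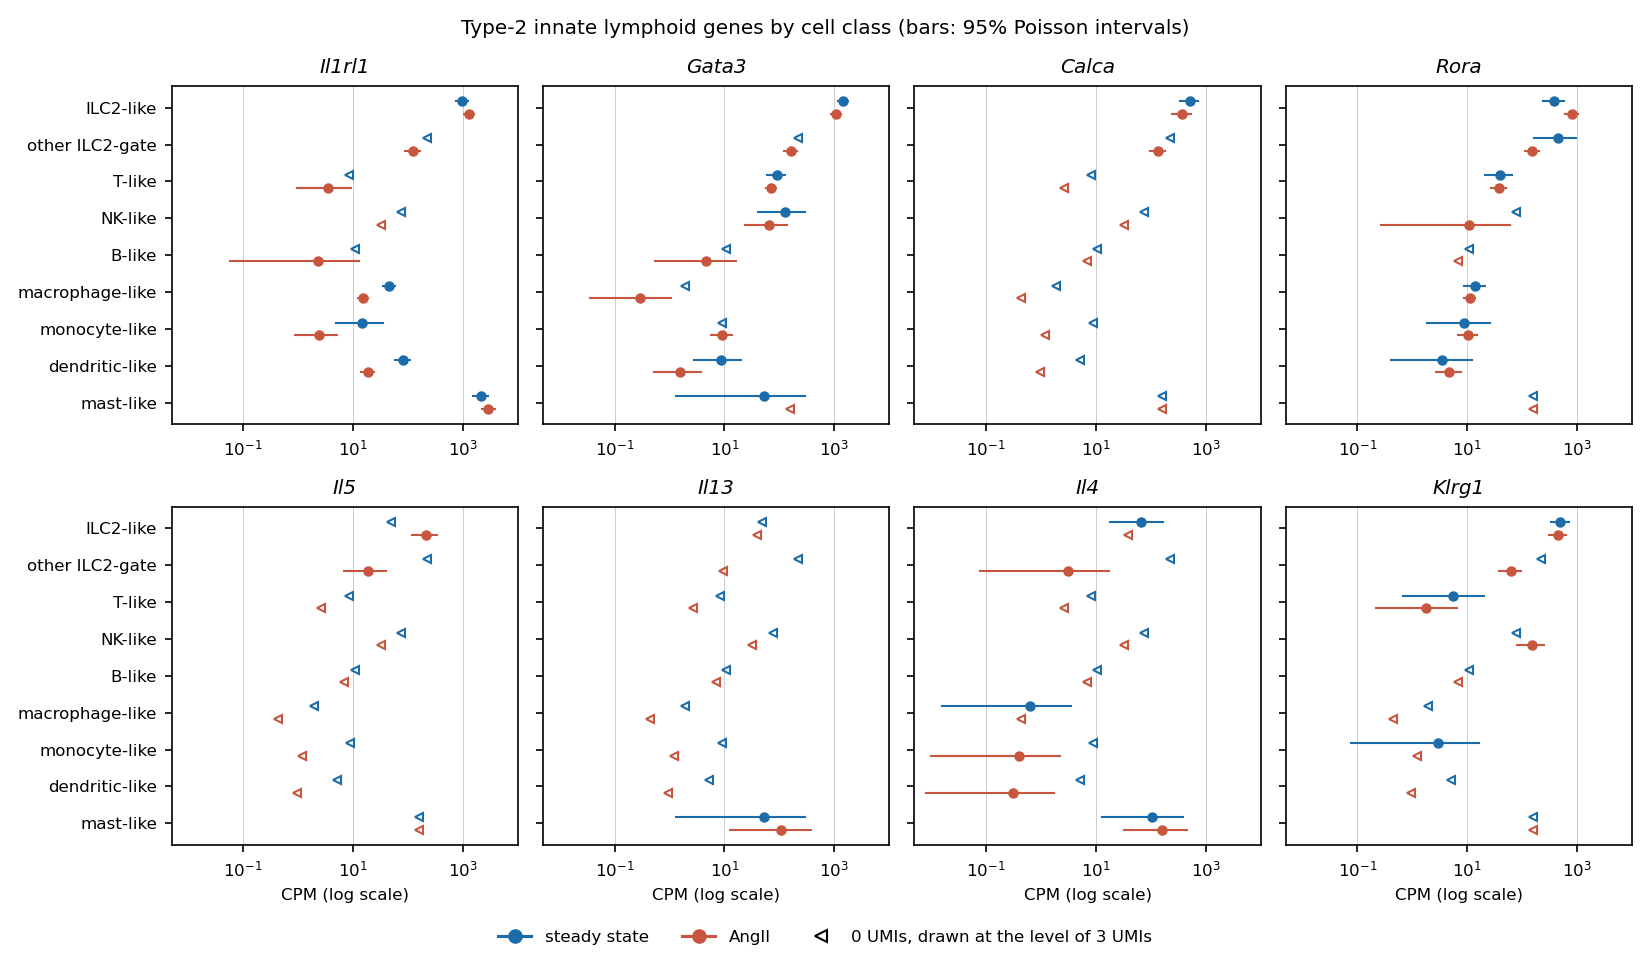
CPM of each member (log scale) by cell class at steady state (blue) and on AngII (red), with 95% Poisson intervals and open triangles at the level of 3 UMIs for classes with 0 UMIs. *Gata3*, *Calca* and *Klrg1* are highest in ILC2-like cells (*Gata3* 1444 and 1074 CPM), as is *Rora* on AngII. Of the classes drawn, which leave out the 1 basophil-like cell, *Il1rl1* is highest in mast-like cells, *Il13* is found only there, the *Il4* intervals of mast-like and steady-state ILC2-like cells overlap, and *Il5* is found in the ILC2 gate on AngII.

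Against T-like and NK-like cells together, the members were far higher in ILC2-like cells. A gene was counted as higher or lower when it had at least 10 UMIs over both sides and a CPM ratio beyond 2 times, with a count under 3 UMIs on the lower side taken as 3. By this rule 5 of the 5 members with enough UMIs were higher and 0 lower at steady state, where 16.5% of all genes were higher and 4.02% lower. On AngII 6 of 6 were higher and 0 lower, where 16% of all genes were higher and 5.41% lower. At steady state *Il1rl1* (59 UMIs against 0), *Calca* (31 against 0) and *Klrg1* (30 against 2) had enough UMIs only through ILC2-like cells. So did *Il1rl1* (99 against 4), *Calca* (28 against 0) and *Il5* (16 against 0) on AngII. The members were also selected on these libraries, so these counts and those of the full gate below describe the set and do not test it. *Gata3* was 15.6 times higher at steady state (10.5 to 23.5) and 15.3 times higher on AngII (11.1 to 20.9). *Rora* was 10.8 (5.31 to 22.6) and 22.2 times higher (14.8 to 33.5), and *Klrg1* 98.3 (24.9 to 849) and 34.0 times (18.3 to 66.0). Both libraries thus placed even the T cell factors *Gata3* and *Rora* more than 10 times above their T and NK cell level. Against 0 UMIs in T-like and NK-like cells, taken at 3 UMIs over the group, *Il1rl1* was at least 129-fold and *Calca* at least 67.7-fold higher at steady state, and *Calca* at least 149-fold and *Il5* at least 85.4-fold higher on AngII. *Il1rl1* on AngII was 396 times higher (150 to 1484). In the full gate 5 of 5 members were higher at steady state, where 16.5% of all genes were higher and 4.36% lower. On AngII 6 of 6 were higher, where 14.9% were higher and 13.9% lower, with smaller ratios (*Gata3* 4.76 times, 3.60 to 6.31). The AngII T-like cells were shallow (median 1055 UMIs), which bears on shares of cells. Whether depth plays a part in these summed ratios was not tested.

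Members were also counted in pairs within cells. At least 3 of the 8 were found in 9 of 306 cells at steady state (2.94%) and in 20 of 4198 on AngII (0.476%). All 7 steady-state ILC2-like cells were among the 9, with the basophil-like cell and the unassigned cell that held *Il5*. Of the 20 AngII cells, 15 were in the ILC2 gate (9 ILC2-like and 6 with T cell UMIs), 2 were mast-like, and 1 each was monocyte-like, dendritic-like and unassigned. No T-like, NK-like or B-like cell of either library held more than 2 members. The highest number was 5 members in a cell at steady state and 6 on AngII. After thinning to 1000 UMIs, 3 of 303 and 6 of 2288 cells still held 3 or more, each of them in the gate.

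Pairs of members differed in how far they were shared. *Il1rl1* and *Gata3* met in 10 steady-state cells, which are 13.7% of 73 cells with *Il1rl1* and 33.3% of 30 cells with *Gata3*. Of the 10, 6 were ILC2-like and 4 lay outside the gate. On AngII they met in 17 cells, which are 9.39% of 181 and 18.1% of 94 cells, and 15 of the 17 lay in the gate. *Gata3* and *Klrg1* met in 6 and 18 cells, that is in 66.7 and 78.3% of the cells with *Klrg1*. *Il5* was the most nested member, as all 7 AngII cells with *Il5* also held *Gata3* and *Klrg1* and 6 of the 7 held *Il1rl1* and *Rora*.

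EYFP transcripts, which mark descent from a *Rank*-expressing cell, were frequent in ILC2-like cells. A cell with at least 1 EYFP UMI is called *Yfp*+. At steady state 6 of 7 ILC2-like cells were *Yfp*+ (85.7%, 42.1 to 99.6%), with 16 UMIs (263 CPM, 150 to 426). On AngII 7 of 10 were *Yfp*+ (70%, 34.8 to 93.3%), with 25 UMIs (327 CPM, 212 to 483). Macrophage-like cells, which held 83.8 and 77.5% of all EYFP UMIs, were at 234 CPM (211 to 259) at steady state and at 119 CPM (111 to 127) on AngII. On AngII the interval of ILC2-like cells lay above that of macrophage-like cells, and at steady state the intervals overlapped. Of the other 30 AngII cells of the gate 4 were *Yfp*+ (43.2 CPM, 23.6 to 72.4), and in the full gate 6 of 9 and 11 of 40 cells were.

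B-like cells were taken as the class that should hold little of the reporter. At steady state 0 of 49 B-like cells were *Yfp*+, which allows up to 6.12%, at a median depth of 5573 UMIs. On AngII 4 of 100 were, with 10 UMIs (23.0 CPM, 11 to 42.2) at a median depth of 3954 UMIs. T-like cells stood at 3 of 38 (25 CPM) and 3 of 258 (3.54 CPM). The EYFP level of ILC2-like cells was 11.7 times that of T-like and NK-like cells at steady state (4.85 to 29.9) and 66.7 times on AngII (26.7 to 199). Mast-like cells, the other high *Il1rl1* class, held 0 EYFP UMIs in 5 and 10 cells, which allows up to 158 CPM in each library, so that a level like that of T-like cells would not have been seen. On AngII this bound also lies above the EYFP level of macrophage-like cells.

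Depth limited the shares. After thinning to 1000 UMIs, 0 of 9 gate cells at steady state (which allows up to 33.3%) and 4 of 39 on AngII were *Yfp*+, and 1 of the 10 ILC2-like AngII cells was, against 1 of 157 T-like and NK-like cells and 90 of 851 macrophage-like cells. At steady state 19 of 126 macrophage-like and 0 of 41 T-like and NK-like cells remained *Yfp*+. At that depth a share of reporter cells at steady state was not detectable in the gate. *Tnfrsf11a*, the gene whose locus drives the Cre, was at 1 UMI (16.4 CPM, 0.415 to 91.4) in steady-state and 2 UMIs (26.2 CPM, 3.17 to 94.6) in AngII ILC2-like cells. These intervals include the 46.6 and 50.1 CPM of macrophage-like cells, so that a difference was not detectable.

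**Figure D3:**
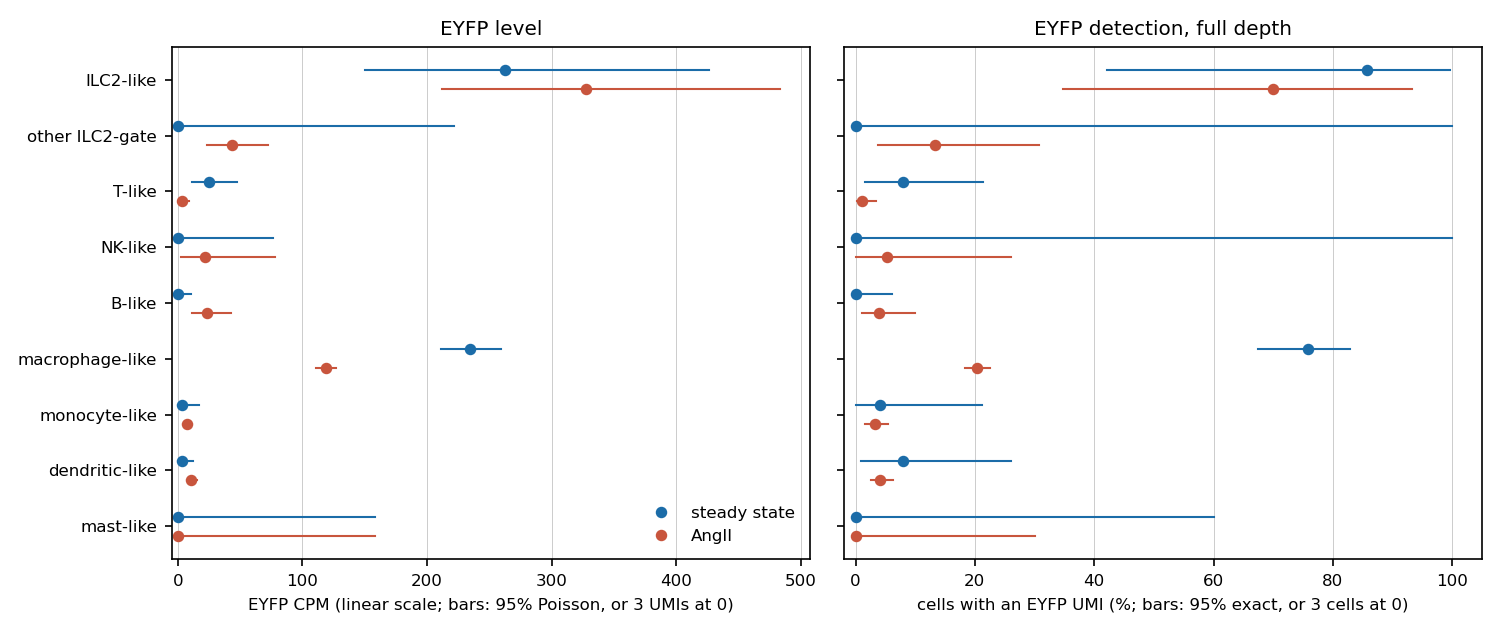
EYFP level in CPM (left, linear scale) and share of cells with at least 1 EYFP UMI at full depth (right, %) by cell class at steady state (blue) and on AngII (red), with 95% Poisson and Clopper-Pearson intervals, or bars up to 3 UMIs or 3 cells where the count is 0. ILC2-like cells (263 and 327 CPM) lie beside macrophage-like cells (234 and 119 CPM), and T-like cells lie below both.

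The overlap of the members with the reporter was followed inside the AngII gate, where 11 *Yfp*+ and 29 *Yfp*− cells had like median depths (7785 and 7299 UMIs). *Il1rl1* reached 661 CPM among *Yfp*+ cells but 193 CPM among *Yfp*− cells (3.42 times, 2.40 to 4.92). *Klrg1* was 3.77 times (2.10 to 6.97), *Gata3* 2.60 times (1.82 to 3.72) and *Rora* 2.28 times higher (1.54 to 3.38). *Calca* had an interval that includes 1 (1.55 times, 0.938 to 2.53). Of the *Il5* UMIs, 21 of 22 lay in 5 of the *Yfp*+ cells and 1 in 1 *Yfp*− cell. ILC2-like cells made up 7 of the 11 *Yfp*+ and 3 of the 29 *Yfp*− cells. Within ILC2-like cells alone, the intervals of *Il1rl1* (0.830 times, 0.542 to 1.29), *Gata3* (1.10 times, 0.671 to 1.85) and *Klrg1* (1.09 times, 0.502 to 2.55) included 1, while *Rora* was 3.50 times higher in the *Yfp*+ cells (1.59 to 9.12). *Il5* was found there in 3 of 7 *Yfp*+ and 1 of 3 *Yfp*− cells, as 15 UMIs and 1 UMI (6.81 times, 1.05 to 287). In the steady-state gate, with 6 *Yfp*+ and 3 *Yfp*− cells, *Il1rl1* was 4.53 times higher (1.83 to 14.5), and *Gata3* (0.666 times, 0.426 to 1.06), *Rora* (1.32 times, 0.544 to 3.65) and *Klrg1* (2.10 times, 0.789 to 7.01) had intervals that include 1. Only 1 of the steady-state ILC2-like cells was *Yfp*−, and it held 34 of the 88 *Gata3* UMIs. The other 2 *Yfp*− cells had T cell UMIs and held 0 *Il1rl1* UMIs. Against that 1 cell, the *Yfp*+ ILC2-like cells stood at 1.74 times for *Il1rl1* (0.702 to 5.58) and 0.256 times for *Gata3* (0.164 to 0.406). Counting all cells with 3 or more members, 8 of 9 at steady state and 9 of 20 on AngII were *Yfp*+. All 9 AngII cells lay in the gate (9 of 15 inside and 0 of 5 outside).

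In macrophage-like cells, where *Il1rl1* was the most frequent member, its steady-state level was 49.2 CPM among 97 *Yfp*+ and 22.2 CPM among 31 *Yfp*− cells (2.22 times, 0.905 to 7.06), so that the interval includes 1. The AngII levels were 19.3 CPM among 285 *Yfp*+ and 11.6 CPM among 1112 *Yfp*− cells (1.66 times, 1.10 to 2.51). The *Yfp*+ cells were deeper in both libraries (medians 11283 and 6326 UMIs at steady state, 7188 and 1083 on AngII). Whether depth plays a part in this difference was not tested. *Rora* did not differ beyond counting error between these cells on AngII (ratio 0.997, 0.616 to 1.60).

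Between the conditions, the result depended on which cells were compared. Over all cells, *Il1rl1* was at 82.2 CPM at steady state and 27.0 CPM on AngII, a ratio of 0.329 (0.284 to 0.381). Of the 7 members with at least 10 UMIs, 5 were more than 2 times lower on AngII and 0 were higher, where 12.4% of all genes were lower and 4.99% higher. The lower ones were *Il1rl1*, *Gata3* (0.408), *Calca* (0.477), *Klrg1* (0.442) and *Il4* (0.203), and *Rora* stood at 0.816 (0.629 to 1.07). *Il5*, with 23 UMIs on AngII and 1 at steady state, had a ratio of 4.66 with an interval that includes 1 (0.757 to 192), and is not counted as higher because the single UMI was taken as 3. In the full gate 4 of 6 members were lower and 0 higher, where 14.7% of all genes were lower and 7.2% higher. ILC2-like cells made up 2.29% of the steady-state and 0.238% of the AngII library.

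Within ILC2-like cells the picture differed. *Il1rl1* was at 968 CPM at steady state and 1297 CPM on AngII, a ratio of 1.34 (0.961 to 1.88). *Gata3* (0.744, 0.544 to 1.02), *Calca* (0.721, 0.417 to 1.24) and *Klrg1* (0.905, 0.537 to 1.53) also had intervals that include 1. *Rora* was 2.12 times higher on AngII (1.29 to 3.58), and *Il5*, with 16 UMIs against 0, was at least 4.26-fold higher. By count 2 of 6 members were higher and 0 lower, where 14.7% of all genes were higher and 11.4% lower. *Il5* entered this count only through its AngII UMIs, which came from 4 cells. *Il4*, with 4 UMIs against 0, had too few UMIs to be counted and was at least 1.67-fold lower. The count is therefore a description and not a test of change. The sum of the 8 members had a ratio of 1.09 (0.916 to 1.29) in ILC2-like cells, against 0.410 (0.352 to 0.480) in the full gate and 0.426 (0.386 to 0.471) over all cells. In T-like cells *Gata3* (0.797, 0.523 to 1.24) and *Rora* (0.979, 0.525 to 1.94) had intervals that include 1, and 0 of these 2 members with enough UMIs were beyond 2 times, where 17.1% of all genes were higher and 9.66% lower. The condition, the library, its depth and its animals cannot be told apart in this design.

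**Figure D4:**
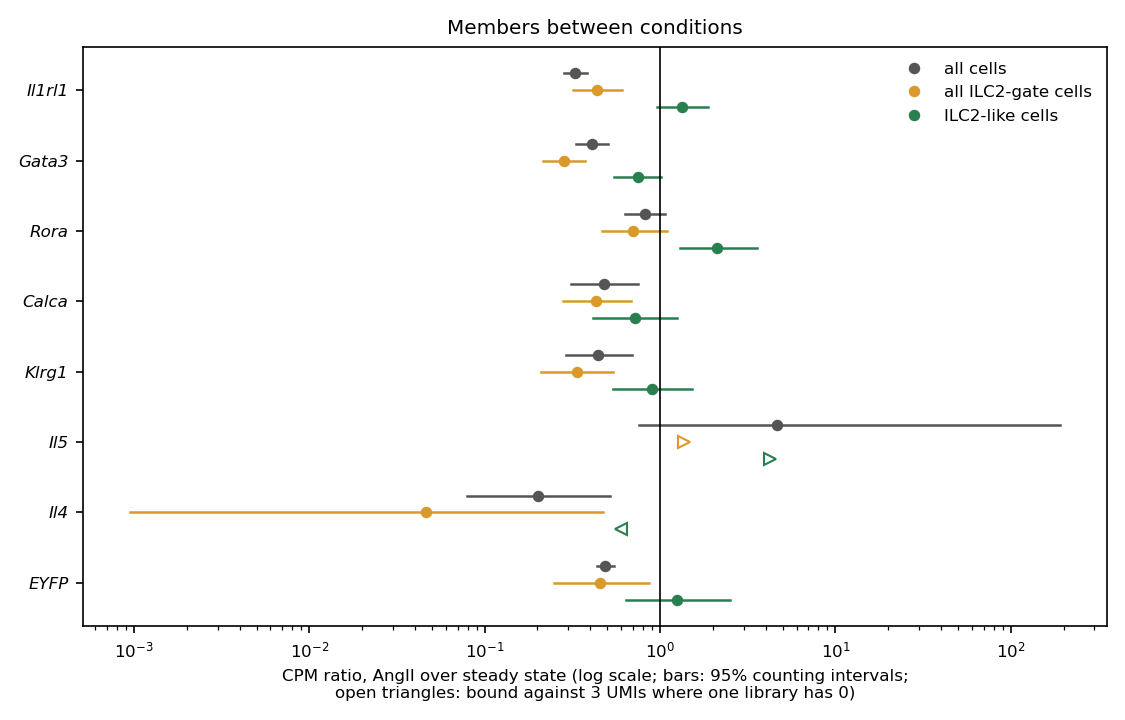
CPM ratio of AngII over steady state (log scale) for the members and EYFP over all cells (grey), all cells of the ILC2 gate (orange) and ILC2-like cells (green), with 95% counting intervals and open triangles for bounds against 3 UMIs. Grey and orange points of *Il1rl1*, *Gata3*, *Calca* and *Klrg1* lie below 1, while the green intervals of these genes include 1 and those of *Rora* (2.12) and *Il5* (at least 4.26) lie above it.

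The wider pathway was read from lists of receptors, factors and effectors, in ILC2-like against T-like and NK-like cells. The counts below stand beside the 16.5% of all genes that were higher and 4.02% that were lower at steady state, and 16% and 5.41% on AngII. As the lists were chosen with earlier results known, these counts describe them and do not test them. Of 10 effector genes of type-2 lymphocytes that were not part of the gate, 1 of 1 tested was higher at steady state and 2 of 3 on AngII. In both libraries *Arg1* had enough UMIs only through ILC2-like cells (39 UMIs against 0, and 23 against 7). *Arg1*, the arginine-degrading enzyme of ILC2s and of alternatively activated macrophages, was at 640 CPM against 0 UMIs at steady state (at least 85.2-fold) and 52.6 times higher on AngII (21.9 to 145). *Pdcd1*, which encodes the checkpoint receptor PD-1, was 9.01 times higher on AngII (4.76 to 16.5).

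The receptors for alarmins and CGRP were also present. Among 8 alarmin genes and receptor chains, 0 of 2 tested were higher and 1 lower at steady state (*Il17ra*, 0.492 times, 0.0973 to 1.54), and 3 of 4 were higher on AngII. *Crlf2*, the specific chain of the TSLP receptor, was 1.16 times (0.217 to 4) and 6.59 times (3.77 to 11.2) the T and NK cell level, and *Tnfrsf25*, the receptor of TL1A, was 16.0 times higher on AngII (5.24 to 49.0). Of the 4 CGRP receptor chains, 1 of 1 tested was higher at steady state and 3 of 3 on AngII. On AngII *Ramp3* had enough UMIs only through ILC2-like cells (22 UMIs against 8). *Ramp1*, the chain that makes *Calcrl* a CGRP receptor, was 2.14 times (1.19 to 3.71) and 8.82 times higher (6.42 to 12.0). *Ramp3* was 44.0 times higher on AngII (18.9 to 114) and had 0 UMIs in steady-state ILC2-like cells, and *Calcrl* itself was at 4 UMIs on AngII (10.7 times, 2.22 to 45.0). The ligand gene *Calca* came from 1 of 7 ILC2-like cells at steady state and 3 of 10 on AngII. Whether single cells held both *Calca* and the receptor chains was not tested.

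Among 13 transcription factors, 1 of 9 tested was higher and 1 lower at steady state, and 2 of 11 were higher and 2 lower on AngII, with the higher share near that of all genes. *Id2*, the factor common to innate lymphoid cells, was 3.44 times (2.61 to 4.5) and 6.02 times higher (4.8 to 7.5). *Tcf7*, which is high in naive T cells, was at 0 UMIs in ILC2-like cells against 363 CPM at steady state and at 0.0792 times the T and NK cell level on AngII (0.0257 to 0.185). *Bcl11b*, which T cells and ILC2s share, stood at ratios of 0.976 (0.514 to 1.72) and 0.982 (0.650 to 1.43). Of the 6 symbols of the γδ T cell list 3 were in the table. *Trdc* and *Cd163l1* had 0 UMIs in ILC2-like cells of both libraries. On AngII this allows up to 39.3 CPM, and both genes were below that level in T-like and NK-like cells. At steady state *Cd163l1* was also below the 49.2 CPM allowed, so these zeros do not show absence. The γ chain gene *Trgc1* was found in 4 of the 9 steady-state cells with 3 or more members. On AngII *Trgc1* was found in 8 of 40 cells of the full gate. *Trgc4*, another γ chain gene, was found in 8 of the 20 AngII cells with 3 or more members. Of 7 receptor genes for IL-4, IL-5 and IL-13, 1 of 2 tested was higher at steady state and 1 of 4 on AngII. This was *Il2rg*, the common cytokine receptor chain, which was 2.69 times (1.85 to 3.86) and 4.94 times higher (3.69 to 6.54).

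From steady state to AngII in ILC2-like cells, *Ramp1* was 2.88 times higher (1.69 to 5.16), *Ramp3* at least 5.85-fold, *Crlf2* 5.59 times (1.67 to 29.3) and *Pdcd1* 3.59 times higher (1.18 to 14.6), while *Arg1* stood at 0.471 (0.268 to 0.808). *Id2* (1.05, 0.786 to 1.41) and *Areg* (0.850, 0.505 to 1.43), a growth factor gene of the gate, had intervals that include 1. These ratios rest on 7 and 10 cells.

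Genes whose UMIs lay most in the cells with 3 or more members were ranked by that share, among genes with at least 20 UMIs in the library. These cells held 1.98% of all UMIs at steady state and 0.935% on AngII. At steady state *Arg1* led with 43 of 43 UMIs, followed by the phosphatase gene *Ptpn13* (33 of 37) and *Nrgn* (46 of 53). *Rnf128*, *Tnfsf11*, *Trgc1*, *Hs3st1*, *Il2ra*, *Cish* and *Gm20186* completed the first 10, of which 3 (*Ptpn13*, *Rnf128* and *Il2ra*) are genes of the ILC2 gate. *Tnfsf11* encodes RANKL, the ligand of *Rank*, and held 21 of its 28 steady-state UMIs in 5 ILC2-like cells (345 CPM, 213 to 527), with the other 7 in T-like cells (19.5 CPM). On AngII it was at 157 CPM in ILC2-like cells (81.2 to 275), where 10 of 12 UMIs came from 1 cell, and at 39.0 CPM in T-like cells, which held 57.1% of its UMIs.

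On AngII *Ccdc184*, a gene of the gate, led with 27 of 28 UMIs. *Mcpt4* and *Fcer1a* followed among the first 10, and they are a mast cell protease and a chain of the IgE receptor and came from 2 of the 20 cells. *Nrgn* and the gate gene *Ptpn13* were among the first 10 in both libraries. Among genes outside the gate lists, *Arg1*, *Hs3st1*, *Nrgn* and *Slc7a8* were in both libraries among the 10 with the highest ratio of ILC2-like over T-like and NK-like cells. *Slc7a8*, an amino acid transporter gene, was found in 7 of 7 and 7 of 10 cells, at ratios of 210 (35.0 to 8539) and 53.4 (20.7 to 162). Some leading genes rested on a single cell, as did *Hes1* with 43 UMIs at steady state and *Cxcl1* with 27 on AngII.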

How the data were processed

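Live CD45+ adventitial cells were captured with 10x 3′ v3.1 chemistry, in 2 libraries without replicates. Per the study's methods, the authors split the reads by sample with Je and used CellRanger 3.1.0 for mapping, on a GRCm38.p6 reference (GENCODE M24) extended by eYFP. They deposited raw UMI counts for every gene and called cell. The members and the gene lists were chosen with earlier results of these data known.

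A cell was kept if it had from 300 to 6500 genes and no more than 5% of its UMIs from mitochondrial genes. For each of 13 marker lists, free of the members and EYFP, the CPM of a cell was divided by the mean of the highest 1% of cells (at least 5), and the highest score gave the class if it was at least 0.1 from at least 3 UMIs of 2 genes. Doublets were left in. Levels (CPM) were computed from UMIs summed over cells, with Poisson intervals, shares have Clopper-Pearson intervals, and ratios have conditional binomial intervals, at 95%. A count under 3 UMIs over the group was set to 3 for bounds and calls. A gene was tested in a comparison with at least 10 UMIs over both sides and called beyond a ratio of 2. Thinning drew 1000 UMIs per cell without replacement, leaving shallower cells out. Genes named are the members, EYFP, the fixed lists, the 10 highest ratios of the gate over T-like and NK-like cells among genes with at least 20 UMIs, and the 10 genes most confined to cells with 3 or more members. *Tnfrsf11a*, *Tnfsf11* on AngII, *Foxp3* and *Cd3g*, were added after their values were seen, as were the ratios over T-like and NK-like cells of ILC2-like cells. The alternatives changed the cell filter, the gate, doublets, depth, the clustering (Leiden, resolution 1, Scanpy 1.11.5), single cells and the number of UMIs for a gene to count as found. The steps were tested on simulated data. Promoters were taken from RefSeq and gene coordinates (GRCm38) from GENCODE M21. The software was Python 3.11.15 with pandas 2.3.3, SciPy 1.17.1, Matplotlib 3.10.9 and NumPy 2.4.6.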

Additional observations from a re-analysis of the deposited data

How the results depend on the processing

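The depth of the AngII cells, the few ILC2-like cells and the single library per condition limit these results. No paired analysis was possible because each condition has 1 library and no replicate numbers. Keeping ILC2-like cells alone moved the summed level of the members in the gate from 3236 to 3856 CPM at steady state and from 1328 to 4192 CPM on AngII, turned the AngII over steady-state ratio of the gate from 0.410 to 1.09 (and that of *Il1rl1* from 0.438 to 1.34), left 9 of 15 AngII gate cells with 3 or more members, and moved the *Yfp*+ share of the AngII gate from 27.5 to 70%. Allowing at most 1 T cell receptor or CD3 UMI left 1 and 11 gate cells, with 2552 and 58.3 CPM, a ratio of 0.0228, 1 and 0 cells with 3 or more members, and a steady-state *Yfp*+ share of 100% in place of 66.7%. Thinning to 1000 UMIs moved the AngII gate to 1744 CPM and the ratio over all cells from 0.426 to 0.277, left 3 and 6 gate cells with 3 or more members (of 7 and 15) and 3 and 6 cells overall (of 9 and 20), and moved *Yfp*+ shares of the gate to 0 and 10.3% and that of steady-state cells with 3 or more members from 88.9 to 0%. Asking for 2 UMIs gave 13 AngII cells with 3 or more members and a steady-state *Yfp*+ share of 37.5%. Leaving out cells with a second class gave 2233 CPM in the AngII gate and ratios of 0.642 in the gate and 0.497 over all cells. Cells with at least 1000 genes gave 2095 CPM and 0.648, and a minimum score of 0.2 gave 2032 CPM and 0.628. All barcodes gave 1164 CPM in the AngII gate. The highest 5% of cells as gate reference gave 2348 and 879 CPM, and leaving out the cell with the most member UMIs gave 2649 and 1195 CPM. Leiden clusters gave 3856 CPM at steady state and no value on AngII, where no cluster was named ILC2. The cause of these shifts was not tested. The other 71 values of main results under an alternative were taken as unchanged. Those with a counting interval stayed inside it, and counts of cells, which have none, changed by a small factor at most.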

Other observations

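Some ligand and receptor genes of the type-2 axis were also read in other classes, and were chosen with their values known. *Tslp*, an alarmin that acts on ILC2s and dendritic cells, was found as 75 UMIs in 38 of 128 macrophage-like cells at steady state (47.9 CPM, 37.7 to 60) and at 8.74 CPM in macrophage-like cells on AngII (6.67 to 11.2). *Crlf2*, its receptor chain, was at 123 CPM in macrophage-like cells at steady state (106 to 142) and at 131 CPM on AngII (123 to 140). *Il4ra* was at 60 CPM in macrophage-like cells at steady state (48.5 to 73.4) and at 232 CPM on AngII (221 to 244), and *Csf2rb*, the shared β chain of the IL-5 receptor, was at 47.9 CPM (37.7 to 60) and 134 CPM (125 to 143). *Il13ra1*, a chain of the IL-13 receptor, had overlapping intervals, at 54.9 CPM (43.9 to 67.8) and 60 CPM (54.4 to 66.1). *Tph1*, the enzyme of serotonin synthesis that activated ILC2s can also carry, was highest in mast-like cells, at 369 CPM (148 to 760) at steady state and 2007 CPM (1420 to 2755) on AngII. With 1 library per condition these differences have no replicate check.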
